A study of Mus musculus with 10 samples.

Results

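Voltage-gated potassium channels of the Kv3 and Kv4 families, with the KChIP and DPP proteins that bind Kv4 pores, were followed in mouse dorsal root ganglia (DRG) 24 h after sciatic nerve axotomy. The members are 9 of the 54309 genes in the quantification, taken by gene symbol with the values of their 39 transcripts (of 140789) summed per gene: the Kv3 pore genes Kcnc1, Kcnc2 and Kcnc4, the Kv4 pore genes Kcnd1, Kcnd2 and Kcnd3, the KChIP genes Kcnip1 and Kcnip4, and the DPP gene Dpp10. All 9 passed the filter on low counts, so none was left out. RNA came from left L4 and L5 ganglia of C57BL/6 mice aged 6 to 8 weeks, with no transgene in any group. In the axotomy groups the left sciatic nerve was cut through at mid-thigh, and in the sham groups it was only exposed. Females and males each gave 2 sham libraries and 3 axotomy libraries, 10 in all, and each library pooled ganglia of 2 mice, so that a library is the replicate and differences between single mice were not seen.

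Kv3 channels open only at strongly depolarized voltages and close fast, which lets neurons repolarize quickly and fire at high rates. Kv4 channels carry A-type current, a fast-inactivating potassium current that opens near the firing threshold and delays the next spike. KChIPs are calcium-binding proteins that attach to the intracellular amino terminus of Kv4 subunits. Many KChIP forms, though not all, raise the number of Kv4 subunits at the cell surface. DPP proteins are membrane-spanning relatives of dipeptidyl peptidases without enzyme activity that speed the opening and inactivation of Kv4 channels. In sensory neurons the A-type current of Kv4 channels is known as a brake on excitability.

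Salmon assigned 55258476 (female axotomy 2) to 90111671 (male axotomy 2) read pairs per library, and the spread between replicates was above counting error in every group, with a chi-square of 7 to 70.4 per degree of freedom. The tissue label held against sensory neuron markers, of which all 12 were present in every library and the lowest value was 36.8 TPM (Isl1, in a male axotomy library), while 7 markers of CNS glia and interneurons summed to at most 7.216 TPM. All 8 injury markers rose in both sexes, with a median log2FC of 2.17 in females and 2.00 in males. A check of 5 sex-linked genes found each differing between the sexes as the labels state. Over all 20836 genes tested, axotomy was followed by lower levels in 9.7% and higher levels in 10.5% in females, and by lower levels in 19.4% and higher levels in 22.6% in males, at padj under 0.1 with edgeR.

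Of the 9 members, 5 were lower after axotomy in females and 7 in males, and none was higher, with the same counts at an unadjusted p under 0.05 and with DESeq2. Leaving out 1 library took the female count to 1 (without female sham 2 or female axotomy 1), 2 (without female sham 1) or 3 (without female axotomy 2), and the male count to 4 (without either male sham library). With all 10 libraries, the share of all genes called lower was 9.7% in females and 19.4% in males, the background for the counts of 5 and 7. It does not serve for the counts with a library left out, where fewer genes were called in the same sex. In females it was 4.08% without female axotomy 1 and 5.03% without female axotomy 2. Fits without a sham library leave 1 library in that group, so their shares are not given. The median log2FC of the members was -0.52 in females and -0.60 in males, against -5e-04 and 0.037 over all genes tested. Without regard to the test, 6 members in females and 7 in males had every axotomy library below every sham library of that sex, as did 26% and 27.2% of all genes tested. The members called in both sexes were Kcnc1, Kcnd1, Kcnd2, Kcnip1 and Dpp10. Kcnc4 and Kcnd3 were called in males only, although no member passed the test of a difference in response between the sexes, given further on. Kcnc2 and Kcnip4 were called in neither sex. With the mean level of sensory neuron markers as a covariate, which separated sham from axotomy, 1 member (Kcnip1) was lower in females and 0 in males with edgeR. Of all genes, 4.22% in females and 0.115% in males were called lower with that covariate. In bulk RNA a lower value can come from fewer cells of a type or from less RNA per cell, and these cannot be told apart.

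**Figure D1:**
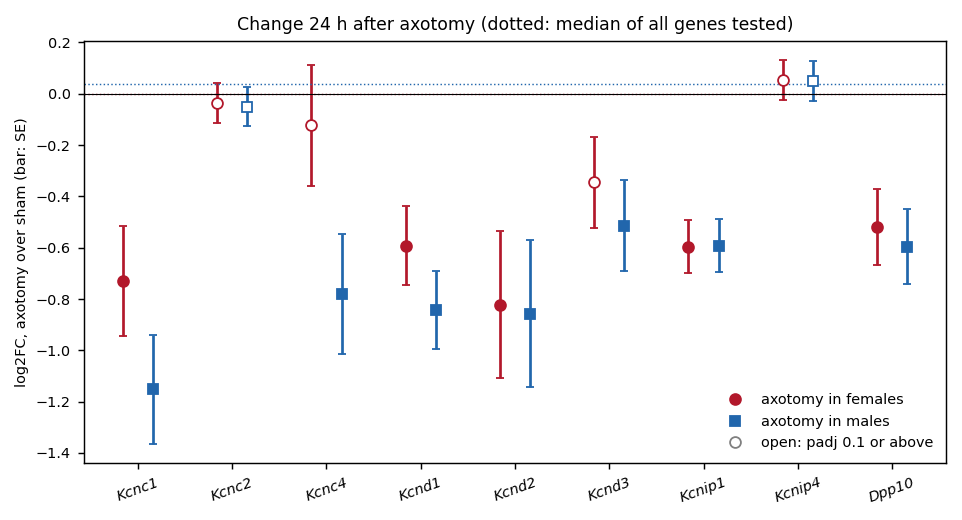
log2FC of axotomy over sham for each of the 9 genes, in females (red circles) and males (blue squares), with bars of 1 standard error, open symbols for padj of 0.1 or above, and dotted lines at the median of all genes tested. Kcnc2 and Kcnip4 lie near 0 in both sexes, and Kcnc1 in males lies lowest at -1.15.

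Transcript levels per length spanned a wide range among the members, as the plot of TPM by group shows. Kcnip4 was the most abundant, with a mean of 145.7 TPM over the 10 libraries (range 131 to 165), and stood apart from every other member. Kcnd1 (66.3 TPM, 35.2 to 96.2), Dpp10 (64.8 TPM, 38.5 to 88.9), Kcnd3 (36.2 TPM, 21.3 to 47.6), Kcnip1 (31.2 TPM, 21.0 to 44.4), Kcnc4 (20.3 TPM, 10.4 to 28.1), Kcnc1 (16.9 TPM, 7.84 to 28.2) and Kcnc2 (13.7 TPM, 11.6 to 15.3) followed, and in this part of the order the ranges of neighbours overlapped. Kcnd2 was last at 0.595 TPM (0.225 to 1.04), below all values of the others. On the TPM scale the median of all genes tested moved by -0.11 in females and -0.16 in males after axotomy (log2 of TPM + 0.1), so changes of whole genes are read from normalized CPM, which are estimated counts corrected for library size, library composition (TMM) and transcript length. Values of single transcripts, family sums and marker sums stay in TPM and carry that shift, which is subtracted where a change is given as relative to all genes.

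**Figure D2:**
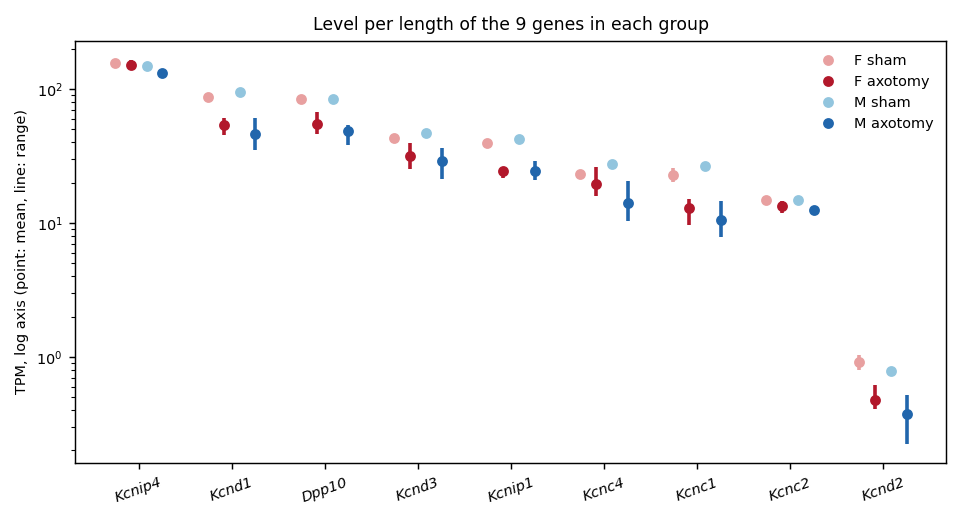
TPM of each of the 9 genes on a log axis, with the group mean as a point and the range over the libraries of the group as a line (2 libraries per sham group, 3 per axotomy group). The order runs from Kcnip4 at a mean of 145.7 TPM to Kcnd2 at 0.595 TPM.

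Among the Kv3 pore genes, Kcnc1, which encodes Kv3.1, a slowly inactivating subunit of fast-firing neurons, fell in both sexes. Kcnc1 stood at 64.0 and 81.6 normalized CPM in the female sham libraries and at 34.6, 47.3 and 49.8 in the female axotomy libraries. In males it stood at 77.4 and 88.9 in sham and at 29.1, 48.8 and 34.2 after axotomy. Every axotomy library lay below every sham library of either sex. The log2FC was -0.73 (SE 0.21, padj = 0.0505) for females and -1.15 (SE 0.21, padj = 0.00357) in males, the latter a change of -55%, and only 1.88% of all genes tested had a lower log2FC in males. The female call was lost without female sham 2 (padj = 0.341), without female axotomy 1 (padj = 0.141) and with no filter on low counts (padj = 0.208).

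Reads of Kcnc1 were split between Kcnc1-201, whose coding sequence has 511 codons in Gencode M21, and Kcnc1-203, with 585 codons. Kcnc1-201 held 58.7% to 66.3% of the TPM of the gene in sham and 50.9% to 61.1% after axotomy, so the ranges overlapped. Both transcripts were lower in every axotomy than in every sham library, at 4.27 to 8.89 against 11.8 to 18.7 TPM for Kcnc1-201 and at 3.57 to 6.84 against 8.28 to 9.90 TPM for Kcnc1-203. Relative to the median of all genes, the log2 change of mean TPM was -0.90 in females and -1.36 in males for Kcnc1-201, and -0.50 and -0.89 for Kcnc1-203. The split between transcripts is an estimate by Salmon and was not tested.

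Kcnc2, encoding Kv3.2, was called in neither sex. It stood at 28.8 and 30.2 normalized CPM in female sham, 26.7, 29.3 and 30.3 in female axotomy, 29.9 and 28.3 in male sham and 28.5, 28.3 and 27.4 in male axotomy. Sham and axotomy overlapped in females and in males. The log2FC was -0.04 (SE 0.08, padj = 0.802) for females and -0.05 (SE 0.08, padj = 0.655) in males, the smallest standard errors among the members, beside those of Kcnip4.

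Since Kcnc1 and Kcnc2 encode similar subunits and differed in their response, their promoters are shown (RefSeq, GRCm38.p6, from 250 bases before to 50 bases after the start, on the plus strand for both). The Kcnc1 promoter lies at chr7:46396218-46396517, 29 bases from the start of Kcnc1-201, and the Kcnc2 promoter at chr10:112270871-112271170, at the start of Kcnc2-201. Capitals mark GGGCGG on either strand, the core of an Sp1-type GC box, and TGANTCA, which do not overlap in these windows. TGANTCA, with any base at N, is looser than the AP-1 motif, which has C or G there.
Kcnc1 promoter: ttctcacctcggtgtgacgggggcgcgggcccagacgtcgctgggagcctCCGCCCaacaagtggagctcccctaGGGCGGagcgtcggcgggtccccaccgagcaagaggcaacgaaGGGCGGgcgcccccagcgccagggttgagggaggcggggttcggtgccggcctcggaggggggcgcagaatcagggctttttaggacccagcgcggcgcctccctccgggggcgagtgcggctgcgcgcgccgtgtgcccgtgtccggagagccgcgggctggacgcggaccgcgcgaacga
Kcnc2 promoter: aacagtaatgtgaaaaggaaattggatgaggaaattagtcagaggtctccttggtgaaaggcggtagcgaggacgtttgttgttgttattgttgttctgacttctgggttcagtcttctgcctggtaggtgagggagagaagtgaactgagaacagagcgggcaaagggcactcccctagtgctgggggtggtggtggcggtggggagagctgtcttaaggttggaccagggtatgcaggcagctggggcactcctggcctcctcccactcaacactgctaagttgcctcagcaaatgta
The Kcnc1 window held 41 CpG sites and 3 GC boxes, beginning 200, 175 and 132 bases before the start, and the Kcnc2 window held 5 CpG sites and none. The median over 32851 promoters was 7 CpG sites, and 35.7% of them held GGGCGG on either strand. RefSeq gave 14 promoters for 8 of the 9 members, 4 of them for Kcnc2, and 1 of the other Kcnc2 windows held 1 GC box. None of these held TGACGTCA, the cAMP response element (1.79% of all promoters), or TATAAA on either strand (13.6% of all promoters). Of the other members, the windows of Kcnc4 and Kcnd2 held 1 GC box each and that of Dpp10 held 2. Of the Kcnip1 windows 1 held 1 GC box and the others held 0, and the Kcnd3 and Kcnip4 windows held 0. These matches are descriptions of letters, not of bound factors, and a link to the response was not tested.

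Kcnc4 encodes Kv3.4, the Kv3 subunit with fast inactivation that is prominent in nociceptors. Its normalized CPM was 37.6 and 43.1 in female sham and 31.2, 32.7 and 47.3 in female axotomy. In males it was 48.3 and 47.0 in sham and 21.3, 37.8 and 24.1 after axotomy. Female axotomy 3 lay above both female sham libraries, whereas all male axotomy libraries lay below both male sham libraries. The log2FC was -0.12 (SE 0.24, padj = 0.777) for females and -0.78 (SE 0.23, padj = 0.0278) in males. The male call was lost without male sham 1 (padj = 0.123), without male sham 2 (padj = 0.111) and with no filter on low counts (padj = 0.142). The shorter transcript Kcnc4-202 held 25.7% to 28.8% of the TPM of the gene in sham and 16.6% to 27.7% after axotomy, with overlap.

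**Figure D3:**
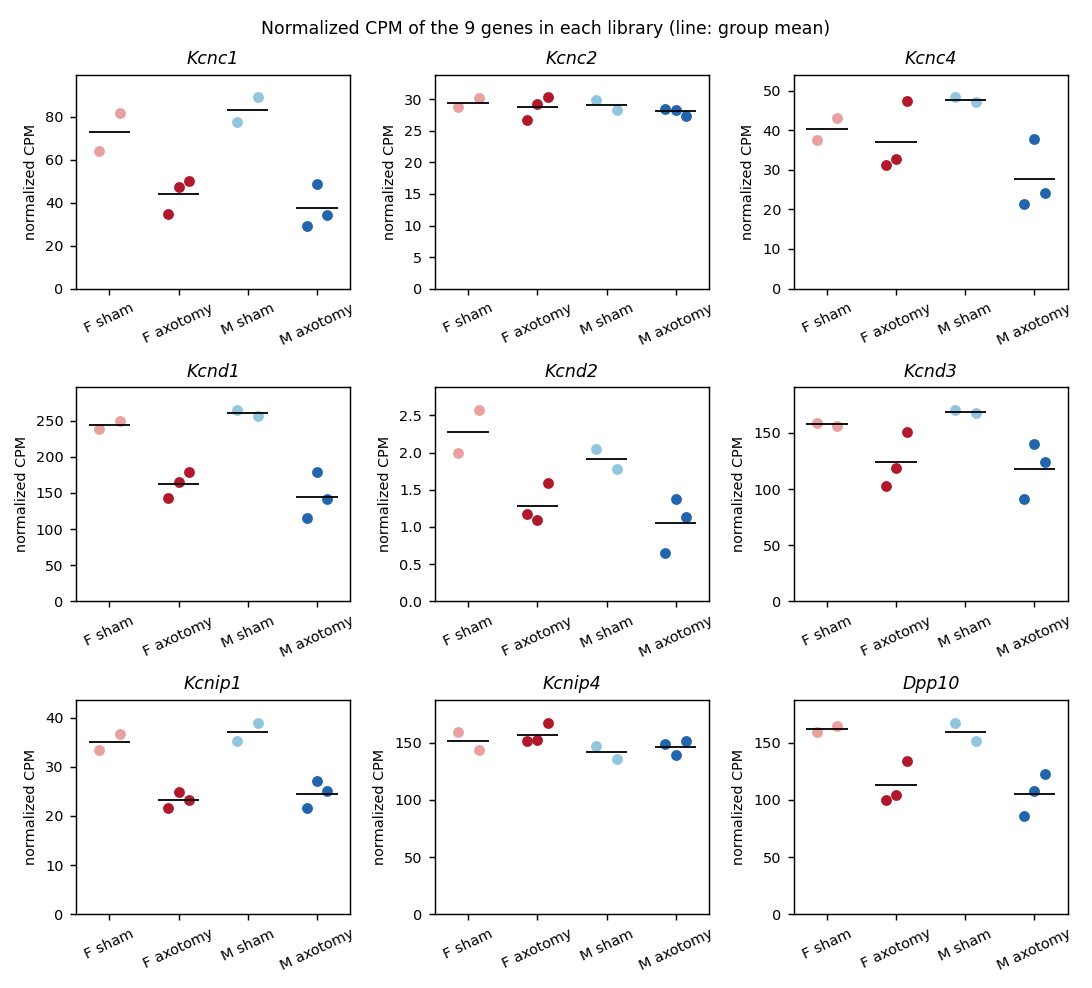
Normalized CPM of each of the 9 genes in every library, by sex and operation, with points for libraries, lines for group means and a linear axis from 0 in each panel. The 3 panels without separation of axotomy and sham in females are Kcnc2, Kcnc4 and Kcnip4.

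All 3 Kv4 pore genes fell in males and 2 of them, Kcnd1 and Kcnd2, in females, and Kcnd1 carried most of the Kv4 transcripts. Kcnd1, encoding Kv4.1, stood at 238.6 and 249.7 normalized CPM in female sham and at 142.7, 164.9 and 178.4 in female axotomy. In males it stood at 264.1 and 256.6 in sham and at 114.9, 179.04 and 141.1 after axotomy. The axotomy libraries lay below all sham libraries with no overlap in either sex. The log2FC was -0.59 (SE 0.15, padj = 0.0309) for females and -0.84 (SE 0.15, padj = 0.00298) in males, changes of -33.6% and -44.3%. Without female sham 1, female sham 2 or female axotomy 1 the female padj was 0.115, 0.2 and 0.107, while the male call was kept whichever library was left out (padj 0.000153 to 0.0309).

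Kcnd3 encodes Kv4.3. Its normalized CPM was 159.1 and 155.9 in female sham, 102.9, 118.5 and 150.4 in female axotomy, 170.1 and 167.9 in male sham, and 90.7, 140.4 and 123.8 in male axotomy. No axotomy library reached the sham libraries of its sex, and female axotomy 3 came closest. The log2FC was -0.35 (SE 0.18, padj = 0.225) for females and -0.51 (SE 0.18, padj = 0.0457) in males. The female value passed without female axotomy 3 (padj = 0.0668) and with the replicate number as a block (padj = 0.0719), while the male call was lost without male sham 1 (padj = 0.157), male sham 2 (padj = 0.15) or male axotomy 1 (padj = 0.108) and with no filter (padj = 0.177). Exons of Kcnd3 overlap those of Kcnd3os on the opposite strand, and because the strand setting of the quantification was not given in the sources used here, reads of the pair may not be fully told apart.

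Kcnd3-202, with 636 codons, held 85.2% to 87% of the TPM of Kcnd3 in sham and 86.2% to 91.2% after axotomy. It stood at 37.4 to 40.6 TPM in sham and 19.2 to 34.2 TPM after axotomy, so it too was lower in each axotomy library. Kcnd3-201, with 655 codons, stood at 4.14 to 5.17 TPM in sham and 1.21 to 3.82 TPM after axotomy, lower in each of the 6 axotomy libraries, with a log2 change relative to all genes of -0.79 in females and -0.93 in males. Kcnd3-203, also with 655 codons, overlapped between the operations, at 0.649 to 1.31 TPM in sham and 0.254 to 1.05 TPM after axotomy. The forms of 636 and 655 codons differ by a short insert in the intracellular carboxyl terminus.

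Kcnd2, encoding Kv4.2, was rare. It was counted at 137 and 164 read pairs in female sham, 145 and 110 in male sham, and 46 to 122 in the axotomy libraries. As normalized CPM these were 1.99 and 2.57 in female sham, 1.18, 1.09 and 1.59 in female axotomy, 2.05 and 1.78 in male sham and 0.654, 1.38 and 1.13 in male axotomy. Axotomy lay below sham without overlap in both sexes. The log2FC was -0.82 (SE 0.29, padj = 0.0848) for females and -0.86 (SE 0.29, padj = 0.0416) in males, with the largest standard errors of the 9 genes. In females the call was lost without either female sham library (padj = 0.151 and 0.426), without either male sham library (padj = 0.121 and 0.128) and without female axotomy 1 or 2 (padj = 0.212 and 0.214). In males it was lost without male sham 1 (padj = 0.196) or male sham 2 (padj = 0.107).

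Per length, the 3 Kv4 genes together made 129.4 to 144.7 TPM in sham and 56.7 to 101.5 TPM after axotomy, a log2 change relative to all genes of -0.50 in females and -0.76 in males. Kcnd1 held 65.7% to 67.1% of this sum in the 4 sham libraries and 59.4% to 64.1% in the 6 axotomy libraries. Kcnd3 held 32.2% to 33.7% in sham and 35.4% to 40% after axotomy, and Kcnd2 held at most 0.774%. The shares of Kcnd1 and Kcnd3 did not overlap between sham and axotomy, so within the family the mix moved from Kcnd1 toward Kcnd3 while the sum was lower. These shares were described and not tested, and a share is unchanged by a common scaling of all genes in a library.

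**Figure D4:**
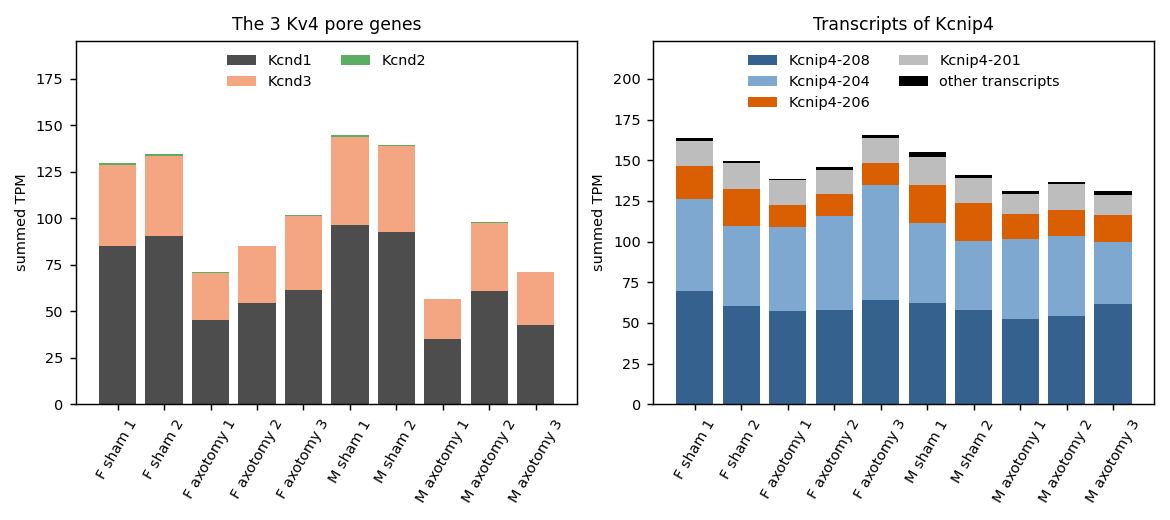
Summed TPM in each library, with the 3 Kv4 pore genes on the left and the transcripts of Kcnip4 on the right, stacked by gene or transcript. The Kv4 sum is 129.4 to 144.7 TPM in sham and 56.7 to 101.5 TPM after axotomy, and the Kcnip4-206 layer is thinner in every axotomy library.

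Of the KChIP genes, Kcnip1 was called in both sexes and Kcnip4 in neither. Kcnip1, encoding KChIP1, stood at 33.3 and 36.7 normalized CPM in female sham and at 21.6, 24.8 and 23.2 in female axotomy. In males it stood at 35.2 and 38.9 in sham and at 21.6, 27.02 and 25.02 after axotomy. All 6 axotomy libraries lay below all 4 sham libraries. The log2FC was -0.60 (SE 0.10, padj = 0.00637) for females and -0.59 (SE 0.10, padj = 0.00266) in males, changes of -33.8% and -33.6%. Leaving out any 1 library kept both calls, with padj of 0.00286 to 0.0857 in females and 0.00069 to 0.0355 in males. Kcnip1-207 held 89% to 90% of the TPM of the gene in sham and 82.4% to 88.4% after axotomy, a difference that was not seen in shares of estimated counts (84.1% to 85.7% and 81.4% to 85.9%).

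Kcnip4, encoding KChIP4, was the only other member besides Kcnc2 that was called in neither sex. Its normalized CPM was 159.1 and 143.5 in female sham, 151.2, 152.7 and 167.01 in female axotomy, 147.1 and 135.7 in male sham, and 148.4, 139.5 and 151.2 in male axotomy. Sham and axotomy overlapped in both sexes. The log2FC was 0.05 (SE 0.08, padj = 0.704) for females and 0.05 (SE 0.08, padj = 0.665) in males.

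Single transcripts of Kcnip4 differed from its total. Kcnip4-206, picked out after its values were seen, stood at 20.6 and 22.8 TPM in female sham, 23.2 and 23.7 in male sham, 13.7, 13.3 and 13.9 in female axotomy, and 15.6, 16.4 and 16.6 in male axotomy. Every axotomy library lay below every sham library, and the log2 change relative to all genes was -0.56 in females and -0.37 in males. The leading transcript Kcnip4-208 overlapped between the operations, at 57.8 to 69.3 TPM in sham and 52.3 to 64.1 TPM after axotomy, as did Kcnip4-204, at 42.3 to 56.7 and 37.9 to 70.5 TPM. By share, Kcnip4-206 held 12.6% to 16.8% of the gene in sham and 8.38% to 12.7% after axotomy, which overlap at their edges. This was described and not tested. Exons of Kcnip4 overlap those of 2 genes on the opposite strand, with the same limit as for Kcnd3.

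Kcnip4-204 and Kcnip4-206 start at separate promoters, shown for that reason (RefSeq, GRCm38.p6, minus strand, each at the annotated start of its transcript). The first lies at chr5:48599633-48599932 and the second at chr5:49285610-49285909, and capitals have the same meaning as above.
Kcnip4-204 promoter: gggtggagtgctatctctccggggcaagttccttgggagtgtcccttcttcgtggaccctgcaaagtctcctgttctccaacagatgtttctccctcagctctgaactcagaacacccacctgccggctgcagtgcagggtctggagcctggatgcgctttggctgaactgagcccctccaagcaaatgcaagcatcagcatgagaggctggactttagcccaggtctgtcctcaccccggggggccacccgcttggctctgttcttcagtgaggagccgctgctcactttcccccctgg
Kcnip4-206 promoter: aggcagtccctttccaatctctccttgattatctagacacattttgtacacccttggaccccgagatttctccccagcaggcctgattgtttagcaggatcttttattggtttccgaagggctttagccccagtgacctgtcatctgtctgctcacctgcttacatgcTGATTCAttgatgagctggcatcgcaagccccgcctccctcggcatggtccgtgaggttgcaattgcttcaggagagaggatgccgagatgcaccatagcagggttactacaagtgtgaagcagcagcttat
Both windows held 7 CpG sites, the median of all promoters. The Kcnip4-206 window held 1 match to TGANTCA, beginning 82 bases before the start, and the Kcnip4-204 window held none. The match reads TGATTCA, with T at the centre, and so is not the AP-1 motif in its strict form. Among all promoters 7.81% held the loose pattern, and no other window of the members did.

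Dpp10, the DPP subunit gene of the set, fell in both sexes. It stood at 159.1 and 164.7 normalized CPM in female sham, 100.3, 104.4 and 133.97 in female axotomy, 167.1 and 151.6 in male sham, and 86.02, 108.1 and 122.2 in male axotomy. Axotomy lay below sham without overlap in females and in males. The log2FC was -0.52 (SE 0.15, padj = 0.0442) for females and -0.60 (SE 0.15, padj = 0.0116) in males. The female call was lost without female sham 1 (padj = 0.145), female sham 2 (padj = 0.236), female axotomy 1 (padj = 0.141) or female axotomy 2 (padj = 0.131), while the male call was kept whichever library was left out (padj 0.0056 to 0.088). Dpp10-201, with 789 codons, held 71.1% to 75.6% of the TPM of the gene in sham and 70.5% to 78.7% after axotomy, so the ranges overlapped.

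The study asked how early reprogramming of DRG after nerve injury differs between the sexes, so the response of the members was compared between them. The male minus female difference in log2FC ran from -0.66 for Kcnc4 (SE 0.33, padj = 0.489) to 0.0037 for Kcnip1 (SE 0.15, padj = 0.997), and 0 of 9 members were called with edgeR or DESeq2, with 0 at an unadjusted p under 0.05 with edgeR. Of all genes tested, 0.072% were called in this comparison. For Kcnc1 the difference was -0.42 (SE 0.30, padj = 0.611) and for Kcnd1 it was -0.25 (SE 0.22, padj = 0.671). These standard errors leave room for sizeable differences of either sign, so the sexes were not shown to respond alike. Without male axotomy 2, the most deeply sequenced library, Kcnc4 passed (-0.95, SE 0.24, padj = 0.0647). That library also had a higher mean log2 normalized CPM of the sensory neuron markers (8.96) than male axotomy 1 (8.73) and 3 (8.70). The female axotomy libraries ran from 8.92 to 8.998. The part of this difference in the result was not tested.

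Between male and female sham, 0 of 9 members were called (padj of 1 for each, 0 at an unadjusted p under 0.05, 0 with DESeq2), against 0.0432% of all genes. Kcnc4, Kcnd1 and Kcnd3 were higher in both male than in both female sham libraries, as were 20.7% of all genes tested, by a log2 difference of 0.24 (SE 0.26), 0.09 (SE 0.17) and 0.10 (SE 0.19). After axotomy, again 0 of 9 members differed between the sexes (padj 0.383 to 0.867, 0 at an unadjusted p under 0.05, 0 with DESeq2), against 1.63% of all genes, and no member was free of overlap. Without male axotomy 2, Kcnc4 (log2 difference -0.71, SE 0.17, padj = 0.0352) and Kcnd1 (-0.34, SE 0.10, padj = 0.0675) were lower in males. Male axotomy 2 had the highest Kcnc1, Kcnc4, Kcnd1, Kcnd2, Kcnd3 and Kcnip1 of the 3 male axotomy libraries. Of these libraries it also had the highest mean of the sensory neuron markers.

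Related genes were counted from lists. Of 33 other voltage-gated potassium channel pore genes, 31 were tested, and in females 17 were lower and 2 higher (median log2FC -0.49), while in males 24 were lower and 2 higher (median -0.68). Among 23 modulators and partners reported for Kv3 or Kv4 channels, 21 were tested, with 4 lower and 2 higher in females (median -0.12) and 12 lower and 3 higher in males (median -0.30), where of all genes 9.7% were lower and 10.5% higher in females and 19.4% lower and 22.6% higher in males. The counts of higher genes were thus near or under these shares. Kinases that phosphorylate these channels were among those lower in both sexes, with Camk2b, a subunit of calcium/calmodulin-dependent kinase, at -0.51 (SE 0.13, padj = 0.0289) for females and -0.71 (SE 0.13, padj = 0.00304) for males, and the protein kinase C gene Prkce at -0.38 (SE 0.12, padj = 0.0696) and -0.71 (SE 0.12, padj = 0.00246). The actin-binding Flna, a partner of Kv4.2, rose in females (0.41, SE 0.08, padj = 0.0092) and in males (0.38, SE 0.08, padj = 0.00474), as did Hax1, a partner of Kv3 channels (0.55, SE 0.09, padj = 0.00336 and 0.61, SE 0.09, padj = 0.00113). Ncs1, a calcium sensor that binds Kv4 subunits, had a log2FC of 0.004 (SE 0.11, padj = 0.986) in females and fell by 0.35 (SE 0.11, padj = 0.0303) in males. The male minus female difference in log2FC of Ncs1 was -0.35 (SE 0.15, padj = 0.424) and was not called. Of 7 genes of the RE1 repressor complex, which silences neuronal genes, 0 were called in females with edgeR (1 at an unadjusted p under 0.05, and 1 higher with DESeq2). In males Rest (0.43, SE 0.12, padj = 0.0187), Hdac1 and Hdac2 rose and Rcor2 and Ehmt2 fell. In the sex by injury interaction 0 of the 7 passed with edgeR (2 at an unadjusted p under 0.05, and 1 with DESeq2).

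Markers of neurons were counted beside the members. Of 12 sensory neuron markers, 3 were lower in females and 8 in males and none was higher (median log2FC -0.20 and -0.38). In females the other 9 were not called, and Uchl1 (0.19), Tubb3 (0.08), Prph (0.08) and Thy1 (0.06) had values above 0. Their summed level was 9864 to 10520 TPM in female sham, 9324 to 9629 in female axotomy, 10650 to 11020 in male sham and 7119 to 9633 in male axotomy, a log2 change relative to all genes of 0.02 in females and -0.23 in males. None was at 0 in any library.

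Markers of neuron types differed among themselves. Of 8 markers of large myelinated neurons, 4 were lower in females, and 5 were lower and 1 higher in males, with a summed level of 2780 to 3543 TPM in sham and 1595 to 2331 TPM after axotomy (log2 change relative to all genes -0.49 and -0.68). Of 6 markers of non-peptidergic nociceptors, 3 were lower in females and 4 in males. The 5 markers of peptidergic nociceptors had a median log2FC of 0.02 in females (1 higher, 1 lower) and 0.27 in males (2 higher, 1 lower), and the 5 pruriceptor markers 0.22 and 0.15 (1 higher in each sex). Among 4 C-LTMR markers 1 was higher in females, and 1 was higher and 1 lower in males. The part of these markers in the values of the members was not tested beyond the covariate that follows.

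The mean log2 normalized CPM of the sensory neuron markers was 9.10 to 9.20 in the sham and 8.70 to 8.998 in the axotomy libraries, so it separated the operations completely, and entering it as a covariate removes much of what the operations differ by. With that covariate, 1 member (Kcnip1, -0.44, padj = 0.0514) stayed lower in females, where 4.22% of all genes were then called lower, and 0 in males (0 at an unadjusted p under 0.05 with edgeR, DESeq2 not run with it), where 0.115% were. The log2FC of Kcnc1 in males was then -0.06 (padj = 0.962), that of Dpp10 -0.44 (padj = 0.731), and those of Kcnc4 (0.44), Kcnd2 (0.12) and Kcnd3 (0.14) were above 0.

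**Figure D5:**
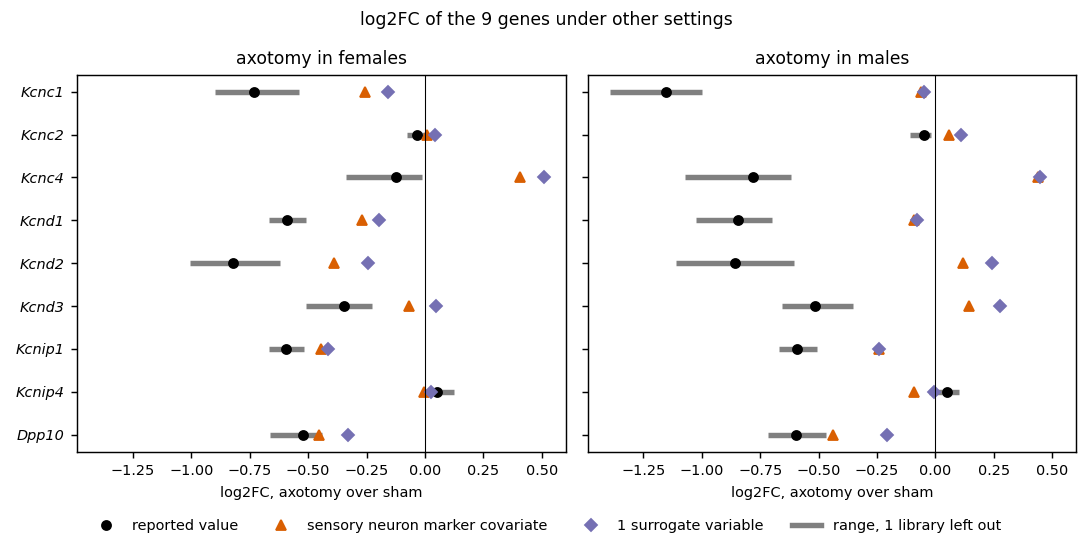
log2FC of axotomy over sham for each of the 9 genes as reported (black circle), with the mean of the sensory neuron markers as a covariate (orange triangle), with 1 surrogate variable (purple diamond), and the range when each library is left out in turn (grey line). With any 1 library left out, the grey lines stay below 0 in both sexes for all genes but Kcnc2 (in females) and Kcnip4, and the covariate moves the values toward or past 0.

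Markers of other cells were counted in the same way. In males all 8 macrophage, 7 fibroblast and meninges, 6 myelinating Schwann cell and 5 erythrocyte markers rose after axotomy, and 4 of 6 satellite glia markers did. In females 1 macrophage marker rose and 1 fell, 2 fibroblast and meninges markers fell, 1 satellite glia marker rose and 2 fell, and no Schwann cell or erythrocyte marker was called with edgeR (0 at an unadjusted p under 0.05, 0 with DESeq2). In the sex by injury interaction, the satellite glia marker Fabp7 (1.70, SE 0.23, padj = 0.0878) and the fibroblast markers Col1a1 (1.352, SE 0.21, padj = 0.0916) and Col1a2 (0.92, SE 0.14, padj = 0.0916) passed with edgeR, each with the higher response in males. With DESeq2 2 satellite glia, 6 fibroblast and meninges, 5 macrophage and 4 Schwann cell markers passed, all with the higher response in males. After axotomy 3 satellite glia, 3 fibroblast and meninges and 1 macrophage marker were higher in males than in females with edgeR.

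Summed macrophage markers were 48.5 to 51.3 TPM in male sham and 97.1 to 149.7 TPM in male axotomy, against 61.7 to 76.5 and 76.6 to 94.7 TPM in females. Summed fibroblast and meninges markers were 536.9 to 557.3 TPM in male sham and 753.7 to 1439 TPM in male axotomy, against 708.8 to 769.4 and 581.4 to 633.4 TPM in females. Erythrocyte markers reached 19810 TPM in a male axotomy library, and skeletal muscle markers reached 114.1 TPM in a female axotomy library. The part of these markers in the values of the members was not tested.

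By root mean square difference of centred log2 profiles over the 10 libraries and 16341 protein-coding genes, the genes most like Kcnip4, the most abundant member, were Zranb2 (0.0343), Capn7 (0.0433) and Tpd52 (0.0447). Those most like Kcnip1, the member with the smallest p, were Agfg2 (0.053), Prr12 (0.0584) and Kank4 (0.0604), whose log2FC ran from -0.56 to -0.54 in females and from -0.65 to -0.60 in males. These are descriptions of shared profiles over the libraries and carry no p.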

How the data were processed

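DRG RNA of 10 libraries was sequenced by the study as paired reads from poly-A selected, stranded libraries. According to the methods and the submitters' processing notes, the authors trimmed reads with Trimmomatic 0.39 and assigned them to Gencode M27 transcripts with Salmon 1.3.0, correcting sequence and GC bias. Its strand setting was not given in the sources used here. As for units, the deposited estimated counts are not normalized, and the deposited TPM are scaled per transcript length and library by Salmon.

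Here estimated counts were summed per gene, rounded and fitted in R 4.3.3 with edgeR 4.0.16 (quasi-likelihood F test, 4 group means over all 10 libraries, TMM, effective length offset, filterByExpr with minimum count 10). Adjustment (padj, Benjamini-Hochberg) ran over 20836 genes, with calls at padj under 0.1, and the standard error was taken from F. A floor of 3 counts per library is 0.0333 to 0.0543 CPM and covers counting error only. The study used DESeq2, run here in version 1.42.0 as an alternative, as were other scalings, filters, covariates (sva 3.50.0) and leaving out each library. The fit was tested on simulated data. Nothing in the labels says more of the replicates than that each pools 2 mice.

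The 9 members, the gene lists and the tests were chosen with earlier results of these data known. All members are named, and list genes only with their list. Promoters and motif shares come from RefSeq (GRCm38.p6), and codon counts and exon overlaps from Gencode M21 (GRCm38), a different build from that of the quantification, so no gene coordinates are given.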

Additional observations from a re-analysis of the deposited data

How the results depend on the processing

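Leaving out each library in turn gave 1 to 6 members lower after axotomy in females and 4 to 7 in males, 0 to 1 members with a sex by injury interaction and 0 to 2 differing between the sexes after axotomy. In females the count was 1 without sham 2 or axotomy 1, 2 without sham 1, and 3 without axotomy 2, and in males it was 4 without sham 1 or sham 2. The share of all genes called lower in females also moved, to 4.08% without female axotomy 1 and 5.03% without female axotomy 2. At padj under 0.05, 3 members were lower in females, and the share of all genes at that threshold is not given. With the sensory neuron marker covariate 1 was lower in females and 0 in males (edgeR, 0 at an unadjusted p under 0.05 in males). Of all genes, 4.22% in females and 0.115% in males were then called lower. With 1 surrogate variable 1 was lower (Kcnip1) and 1 higher (Kcnc4) in females, where 2.79% of all genes were lower and 4.15% higher. In males 0 were lower (edgeR, 1 at an unadjusted p under 0.05), where 0.0144% of all genes were. With so few genes called in males, the count of 0 says little about the members. Both covariates separated all sham from all axotomy libraries and were computed from these libraries. Other size factors, no filter on low counts, no length offset, coding transcripts only and DESeq2 kept all these counts within 1.5 times, as did fits of the compared libraries only, which give no interaction.

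Signs changed under the marker covariate for Kcnc2 (0.0094), Kcnc4 (0.41) and Kcnip4 (-0.0056) in females, for Kcnc2 (0.056), Kcnc4 (0.44), Kcnd2 (0.12), Kcnd3 (0.14) and Kcnip4 (-0.0905) in males, and for the interaction of Kcnc1 (0.19), Kcnc2 (0.0466), Kcnc4 (0.0326), Kcnd1 (0.17), Kcnd2 (0.51), Kcnd3 (0.21) and Dpp10 (0.016). Under the surrogate variable they changed for Kcnc2 (0.0443), Kcnc4 (0.51, padj = 0.0386) and Kcnd3 (0.0462) in females, for Kcnc2 (0.11), Kcnc4 (0.45), Kcnd2 (0.24), Kcnd3 (0.28) and Kcnip4 (-0.0063) in males, and for the interaction of Kcnc1 (0.11), Kcnc2 (0.0646), Kcnd1 (0.12), Kcnd2 (0.49), Kcnd3 (0.23) and Dpp10 (0.12). The interaction of Kcnip1 was -0.0193 with DESeq2 size factors, -0.019 with DESeq2 and -0.0047 with coding transcripts only. With a library left out, values crossing 0 ran from -0.0767 to 0.0155 for Kcnc2 and -0.0145 to 0.12 for Kcnip4 in females, from -0.027 to 0.10 for Kcnip4 in males, and, for the interaction, from -0.0804 to 0.0192 for Kcnc2, -0.29 to 0.21 for Kcnd2, -0.0815 to 0.0879 for Kcnip1, -0.0867 to 0.0569 for Kcnip4 and -0.19 to 0.0584 for Dpp10. The cause of these changes was not tested.

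Libraries with the same replicate number had residual correlations of -0.09 to 0.129 over 13 pairs. With 2 sham libraries per sex this is a weak check, so pairing by replicate number was not settled. With the replicate block 6 members were lower in females and 7 in males. In females the block lowered the standard error of Kcnc1 (0.213 to 0.137) and raised that of Kcnc4 (0.236 to 0.246). With 2 sham libraries per sex, leaving 1 out leaves a lone library that is assumed to vary like the others.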
